A study of Mus musculus with 6 samples.

Results

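The 10 glutathione S-transferase genes described here were measured in RNA from carcinogen-treated mouse esophagus. They were the alpha class genes Gsta3 and Gsta4, the mu class genes Gstm1, Gstm2 and Gstm5, the omega, pi and theta class genes Gsto1, Gstp1 and Gstt1, and the membrane-bound Mgst1 and Mgst3. The genes were set by name, each symbol matched 1 Ensembl ID, and they make up 10 of the 54232 IDs in each deposited count file. All mice, 8 weeks old at the start, drank 4-nitroquinoline 1-oxide (4-NQO, a carcinogen that gives esophageal squamous tumors) at 100 µg/ml for 16 weeks and plain water for the next 12 weeks. Both groups had therefore been exposed to the carcinogen, and no untreated esophagus was analysed here. In the last 2.5 weeks the DTA-1 group received 10 µg of DTA-1, which is an agonist antibody to the T cell co-receptor GITR, into the peritoneum 2 times a week, and the isotype group received a control antibody on the same schedule. The esophagus was peeled to enrich invading cells, and polyA RNA was sequenced from 3 libraries a group. The labels name no strain or sex, and they do not say that the libraries are separate mice. Every p-value below therefore weighs a group difference only against the spread between these libraries.

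Glutathione S-transferases join the tripeptide glutathione to reactive, electrophilic compounds, which are then exported from the cell and excreted. 4-NQO itself is inactivated in part by this conjugation. The soluble classes act in the cytosol, and the microsomal enzymes sit in membranes, where they also reduce lipid peroxides. Several of these genes are targets of the transcription factor NRF2, which binds the antioxidant response element and is released from its inhibitor KEAP1 by electrophiles.

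The libraries held 23766069 to 23914043 counts with DTA-1 and 23147873 to 29065162 with isotype, and the least covered member, Gstt1, had 129 to 521 reads in DTA-1 libraries and 132 to 387 in isotype libraries. Squamous epithelial markers, which define the labelled tissue, were found in each library, with at least 162 reads for each of 15 genes. Isotype replicate 3 stood apart by its glandular stomach transcripts: 8 such genes summed to 2480 CPM there (counts per 1000000), against 0.856 to 10.9 in the DTA-1 libraries and 8.00 to 19.0 in the other 2 isotype libraries. DTA-1 replicate 2 stood apart by red cell transcripts (2899 CPM over 5 genes, against 85.1 to 172 in the other 5 libraries). Members whose fold change turns on one of these libraries are given with and without it. CPM values are counts scaled by edgeR's trimmed mean (TMM) library factors, and the values of a group's 3 libraries are given in the order of replicates 1, 2 and 3.

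Transcripts of 3 of the 10 glutathione S-transferases, Gsto1, Gsta4 and Gstp1, lay lower in every DTA-1 library than in every isotype library, and no member lay higher in every one. Gsto1 averaged 0.430 and Gsta4 0.483 of the isotype level. None of the 10 passed edgeR's quasi-likelihood test at an adjusted p (Benjamini-Hochberg over all 15763 genes tested) of 0.05, nor did any of the 15763 (0%). At an unadjusted p under 0.05 there were 2 lower members and 1 higher, 3 of 10, where the share over all genes was 12.7% (7.52% lower and 5.21% higher). Limma-voom called none of the 15763 genes, and DESeq2 called 180 of 16084 (1.12%), with no member among them. Non-overlapping groups, in either direction, were found for 18.0% of all genes tested (9.38% lower and 8.60% higher with DTA-1). Of the 10 fold changes 5 were negative, as were 52.9% of all. The median log2 fold change was -0.02 over the 10 members and -0.03 over all genes. Fewer epithelial cells in a sample and less RNA per cell cannot be told apart in these bulk libraries.

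**Figure D1:**
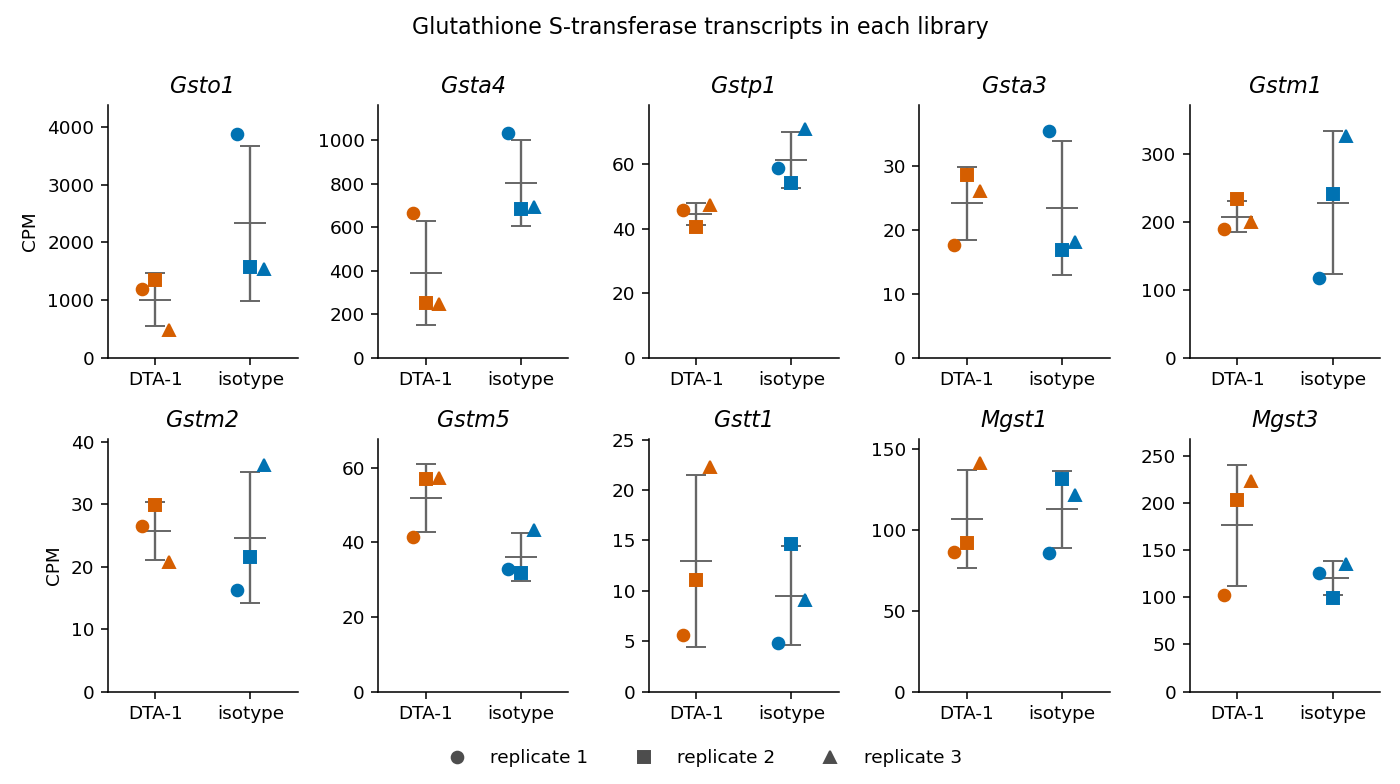
CPM (TMM-scaled) of each of the 10 members in DTA-1 libraries (orange, left) and isotype libraries (blue, right), with a linear axis from 0 in each panel; the symbol shape gives the replicate number, and bars give the mean and SD of 3 libraries. The groups do not overlap for Gsto1, Gsta4 and Gstp1, while the remaining 7 genes overlap.

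Gsto1 encodes the omega class enzyme, which has a cysteine in its active site and reduces dehydroascorbate and mixed disulfides rather than conjugating most substrates. The gene (ENSMUSG00000025068) lies on chromosome 19 at 47854970 to 47864790, plus strand, in GRCm38. It had 1189, 1353 and 476 CPM with DTA-1, against 3893, 1578 and 1541 CPM with isotype. DTA-1 replicate 3 was the lowest library and isotype replicate 1 the highest, and the gap between the groups, 1353 against 1541 CPM, was small beside the range within each. The log2 fold change was -1.22 ± 0.54 (SE), with an edgeR adjusted p of 0.397. Without isotype replicate 1 it was -0.62. Across the 6 libraries Gsto1 spanned 8.17-fold, more than any other member.

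Gsta4 encodes the alpha class enzyme that conjugates 4-hydroxynonenal, an aldehyde made when membrane lipids are oxidized (ENSMUSG00000032348, chromosome 9, 78182774 to 78209349, plus strand). It had 666, 251 and 248 CPM with DTA-1, against 1032, 684 and 695 CPM with isotype. DTA-1 replicate 1 lay just under the isotype range, and the other 2 DTA-1 libraries lay far below it. The log2 fold change was -1.05 ± 0.44 (SE), with an edgeR adjusted p of 0.392 and a DESeq2 adjusted p of 0.221. Without DTA-1 replicate 1, Gsta4 fell by 1.69 ± 0.28 (SE) on the log2 scale, with an edgeR adjusted p of 0.0436. Without DTA-1 replicate 2, DTA-1 replicate 3 or isotype replicate 1 the value was -0.81, -0.81 and -0.82, with edgeR adjusted p-values of 0.859, 0.642 and 0.625. In the refit without DTA-1 replicate 1 edgeR called 601 of 16303 genes (3.69%, with 3.31% lower), and Gsta4 was the 1 member among them.

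Gstp1 encodes the pi class enzyme, a cytosolic conjugating enzyme of epithelia (ENSMUSG00000060803, chromosome 19, 4035407 to 4037985, minus strand). It had 45.8, 40.6 and 47.4 CPM with DTA-1, against 58.9, 54.3 and 71.1 CPM with isotype. The difference was smaller than for Gsto1 and Gsta4, and both groups were tight. The log2 fold change was -0.46 ± 0.16 (SE), with an unadjusted p of 0.0228 and an adjusted p of 0.390 in edgeR. Isotype replicate 3, the library with stomach transcripts, was the highest, and without it the fold change was -0.32 and the groups still did not overlap, as for 19.3% of all genes tested in that direction. Of the 50-base words in Gstp1 transcripts 33.7% also occur in another gene, chiefly its neighbor Gstp2, so that counts of this gene depend on how shared reads were treated.

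Gstm5 and Mgst3 were the members with the highest fold changes. Gstm5, a mu class gene (ENSMUSG00000004032, chromosome 3, 107895821 to 107898686, plus strand), had 41.4, 57.1 and 57.3 CPM with DTA-1, against 32.8, 31.8 and 43.4 CPM with isotype. DTA-1 replicate 1 lay below isotype replicate 3, so the groups overlapped. The log2 fold change was 0.53 ± 0.20 (SE), with an unadjusted p of 0.0341 and an adjusted p of 0.390 in edgeR. Without isotype replicate 3 the fold change was 0.71 with no overlap, where 20.6% of all genes tested lay higher in every DTA-1 library. Its exons share 178 bases with 4933431E20Rik on the opposite strand, 13.9% of the exonic length, and no source used here gives the strand setting of the counting. Mgst3 encodes a membrane enzyme with glutathione peroxidase activity (ENSMUSG00000026688, chromosome 1, 167371966 to 167393841, minus strand). It had 103, 203 and 223 CPM with DTA-1, against 126, 99.7 and 135 CPM with isotype. DTA-1 replicates 2 and 3 lay above all isotype libraries, while DTA-1 replicate 1 lay among them. The log2 fold change was 0.55 ± 0.30 (SE), with an edgeR adjusted p of 0.440, and it was 0.35 without DTA-1 replicate 3.

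The promoters of the 3 members with the smallest unadjusted p among those with a RefSeq window, Gstp1, Gstm5 and Gsto1, are shown because they carry, or lack, the sites through which stress-responsive factors are known to act. Each run is the 250 bases before the RefSeq start site (GRCm38.p6), read along the gene. Capitals mark a match to the antioxidant response element core TGACNNNGC or to the AP-1 site TGANTCA, searched on both strands. The Gsto1 window is chr19:47854723-47854972 on the plus strand, the Gstp1 window chr19:4037913-4038162 on the minus strand, and the Gstm5 window chr3:107895604-107895853 on the plus strand.
Gsto1: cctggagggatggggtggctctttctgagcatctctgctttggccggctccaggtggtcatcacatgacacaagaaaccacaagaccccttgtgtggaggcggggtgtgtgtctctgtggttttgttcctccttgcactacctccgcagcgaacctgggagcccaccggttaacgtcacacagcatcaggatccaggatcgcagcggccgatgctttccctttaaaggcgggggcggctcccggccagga
Gstp1: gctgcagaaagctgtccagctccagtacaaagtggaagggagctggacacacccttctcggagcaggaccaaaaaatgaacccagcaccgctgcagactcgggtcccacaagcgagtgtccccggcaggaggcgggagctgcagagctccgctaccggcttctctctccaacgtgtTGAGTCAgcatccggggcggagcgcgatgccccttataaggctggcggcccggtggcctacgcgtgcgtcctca
Gstm5: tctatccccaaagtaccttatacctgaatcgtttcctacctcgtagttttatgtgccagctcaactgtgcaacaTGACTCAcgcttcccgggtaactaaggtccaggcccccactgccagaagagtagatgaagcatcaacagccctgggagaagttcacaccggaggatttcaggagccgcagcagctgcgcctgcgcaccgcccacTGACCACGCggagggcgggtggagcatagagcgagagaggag
The Gstp1 window holds 1 AP-1 site, TGAGTCA, 74 bases before the start, and no match to TGACNNNGC, the only form of the antioxidant response element core searched. The Gstm5 window holds both, TGACTCA 176 bases and TGACCACGC 42 bases before the start. The Gsto1 window holds neither motif. Over the 9 members with a window, Gsta4 having none, 3 of 11 windows of 300 bases (250 before and 50 after the start) held the antioxidant response element core, against 12.4% of 32851 windows of the same length in the table. The further matches were TGACATTGC 121 bases before the Gsta3 start and TGACCGTGC on the opposite strand 56 bases before a start of Mgst1. The AP-1 site was in 2 of 11 windows, against 7.81% of all windows. Gsta3 and Mgst1, with matches, had log2 fold changes of 0.04 and -0.083.

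DTA-1 replicate 1 sat nearer to the isotype libraries for several members, and leaving it out changed calls. Without it the groups did not overlap for 5 members, Gsta4, Gsto1 and Gstp1 lower and Gstm5 and Mgst3 higher, where 44.9% of all genes tested did not overlap (24.8% lower and 20.1% higher). DESeq2, refitted without that library, called 2449 of 15304 genes (16.0%, with 10.5% lower and 5.48% higher). Of the members, Gsta4 was lower (log2 fold change -1.65, adjusted p = 1.08e-07), while Gstm5 (0.70, adjusted p = 0.0333) and Mgst3 (0.86, adjusted p = 0.0028) were higher. This DESeq2 refit was chosen after seeing the data, and DESeq2 with all libraries called no member. Without any other single library, edgeR and DESeq2 called no member.

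**Figure D2:**
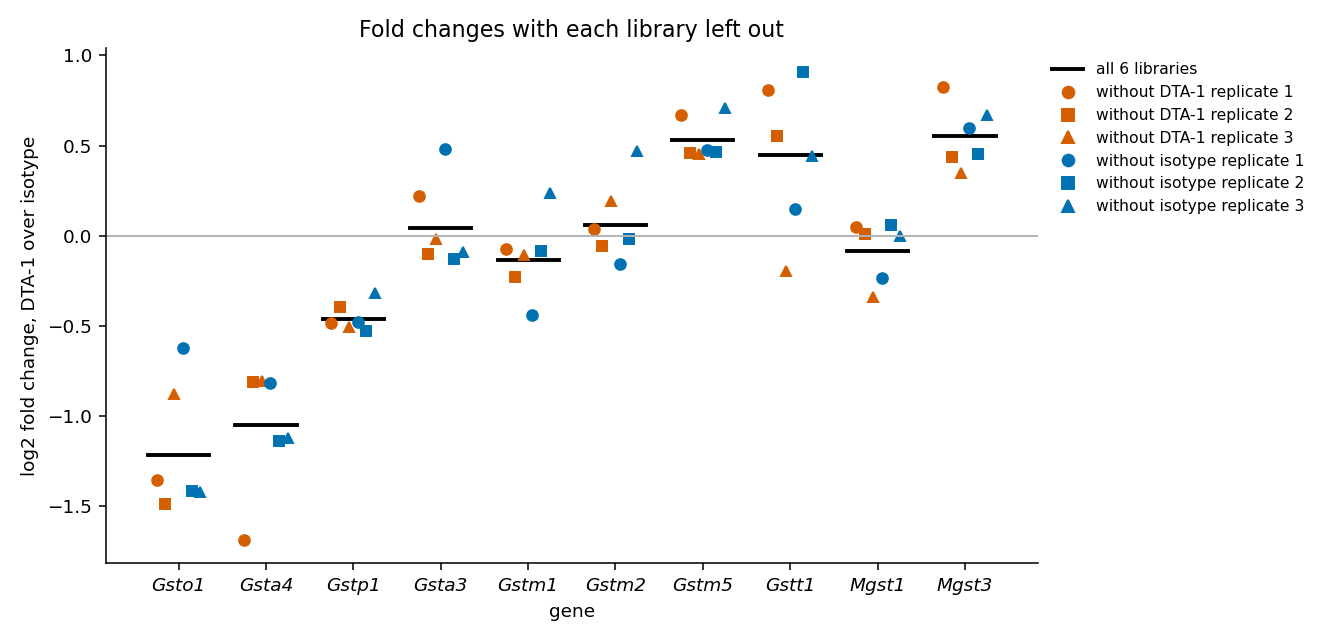
Log2 fold change of each member (DTA-1 over isotype, edgeR) from all 6 libraries (black line) and with 1 library left out (orange symbols, DTA-1 libraries; blue symbols, isotype libraries). Gsto1, Gsta4 and Gstp1 stay below 0 and Gstm5 and Mgst3 above 0 in each refit, while Gsta3, Gstm1, Gstm2, Gstt1 and Mgst1 cross 0.

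The other 2 mu class genes had no difference beyond the spread between libraries. Gstm1, a broadly acting conjugating enzyme (ENSMUSG00000058135, chromosome 3, 108012255 to 108017973, minus strand), had 189, 233 and 200 CPM with DTA-1, against 117, 240 and 326 CPM with isotype. The DTA-1 libraries lay within the isotype range. Its log2 fold change was -0.14 ± 0.36 (SE; edgeR adjusted p = 0.873), and it was 0.24 without isotype replicate 3. Gstm2 (ENSMUSG00000040562, chromosome 3, 107981702 to 107986453, minus strand) had 26.6, 29.9 and 20.8 CPM with DTA-1, against 16.2, 21.5 and 36.4 CPM with isotype. Both genes were lowest in isotype replicate 1 and highest in isotype replicate 3. The Gstm2 fold change was 0.06 ± 0.32 (SE; edgeR adjusted p = 0.941), and it was 0.47 without isotype replicate 3 and -0.078 with library totals alone. Leaving out DTA-1 replicate 2, isotype replicate 1 or isotype replicate 2 gave -0.058, -0.16 and -0.017. Of their 50-base words 18.9% for Gstm1 and 5.65% for Gstm2 recur in other genes, among them a pseudogene of the cluster.

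Gsta3, Gstt1 and Mgst1 overlapped between the groups as well. Gsta3, which in mice conjugates the epoxide of aflatoxin B1 (ENSMUSG00000025934, chromosome 1, 21240589 to 21265661, plus strand), had 17.7, 28.6 and 26.1 CPM with DTA-1, against 35.5, 16.7 and 18.1 CPM with isotype. Isotype replicate 1 was its highest library, and the log2 fold change was 0.04 ± 0.34 (SE; edgeR adjusted p = 0.963), turning to -0.13 with library totals alone. It was also negative on leaving out DTA-1 replicate 2 (-0.099), DTA-1 replicate 3 (-0.017), isotype replicate 2 (-0.13) or isotype replicate 3 (-0.089). Gstt1, a theta class gene known for its action on halomethanes (ENSMUSG00000001663, chromosome 10, 75783813 to 75798584, minus strand), had 5.61, 11.0 and 22.3 CPM with DTA-1, against 4.87, 14.6 and 9.13 CPM with isotype. It varied 4.58-fold over the 6 libraries without separating the groups (log2 fold change 0.45 ± 0.57, SE; edgeR adjusted p = 0.727), and the fold change was -0.20 without DTA-1 replicate 3. Mgst1, a microsomal and mitochondrial membrane enzyme (ENSMUSG00000008540, chromosome 6, 138140316 to 138156755, plus strand), had 86.1, 92.2 and 141 CPM with DTA-1, against 85.9, 131 and 121 CPM with isotype. It varied least of the members, 1.65-fold over all libraries, with a log2 fold change of -0.083 ± 0.25 (SE; edgeR adjusted p = 0.893) that was 0.012 without DTA-1 replicate 2.

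Per kilobase of exon, Gsto1 was the most abundant member and Gsta3 the least. Averaged over the 6 libraries, the order was Gsto1 at 826, Gsta4 at 471, Gstm1 at 148, Mgst3 at 135, Mgst1 at 54.5, Gstm5 at 34.4, Gstp1 at 34.2, Gstm2 at 15, Gstt1 at 7.36 and Gsta3 at 5.47 CPM per kilobase. Neighbors in this order were apart in 2 places, since every library's value of Mgst3 exceeded every value of Mgst1 and likewise Gstp1 exceeded Gstm2. The ranges of the remaining 7 neighboring pairs overlapped. The order of the group averages differed in 2 places. Mgst3 averaged 161 and Gstm1 141 CPM per kilobase with DTA-1, against 109.6 and 155 with isotype. The ratio of Gstm1 to Mgst3 nonetheless overlapped between the groups. Gstm5 averaged 40.7 and Gstp1 28.8 CPM per kilobase with DTA-1, against 28.2 and 39.7 with isotype. Gsto1 nonetheless lay above Gsta4, and Gsta4 above Gstm1, in 6 of 6 libraries.

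The summed scaled counts of the 10 genes followed Gsto1 and Gsta4. The sum was 2371, 2300 and 1462 CPM with DTA-1, against 5402, 2871 and 2997 CPM with isotype. The groups did not overlap, and the averages were 2044 ± 505 CPM with DTA-1 and 3757 ± 1426 CPM with isotype (SD, n = 3 each). Gsto1 and Gsta4 together supplied 78.3%, 69.8% and 49.6% of it with DTA-1, against 91.2%, 78.8% and 74.6% with isotype. The other 8 genes summed to 649 ± 118 CPM with DTA-1 and 616 ± 142 CPM with isotype (SD, n = 3 each), so that this remainder did not separate the groups.

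Ratios between members compare genes within a library and need no scaling between libraries. Of the 45 ratios, 5 did not overlap between the groups, where 16.7% of all ratios of 2 tested genes did not. The widest gap was between Gstm5 and Gstp1. The ratio of Gstm5 reads to Gstp1 reads was 0.905, 1.41 and 1.21 with DTA-1, against 0.557, 0.587 and 0.611 with isotype. The other 4 ratios apart were those of Gstm5 to Gsto1, Gstm5 to Mgst1, Gsta3 to Gsto1 and Gstp1 to Mgst3. None of the 9 ratios with Gsta4 was.

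Markers of squamous epithelium lay lower with DTA-1, as Gsto1, Gsta4 and Gstp1 did, and markers of striated muscle lay higher. The squamous score, a mean log2 CPM over 15 genes, was 9.37, 8.06 and 7.69 with DTA-1, against 9.86, 9.72 and 9.60 with isotype. All 15 genes had negative fold changes (median log2 fold change -1.04, and -1.80 without DTA-1 replicate 1), 5 lay lower in every DTA-1 library, and their sum ranged from 8908 to 31218 CPM with DTA-1 and from 35000 to 43010 CPM with isotype. Like Gsta4, this score was close to the isotype range in DTA-1 replicate 1 alone. Among the DTA-1 libraries, Gsto1 was highest in replicate 2 and Gstp1 in replicate 3, the library with the lowest squamous score. The striated muscle score over 14 genes was 11.90, 12.45 and 12.13 with DTA-1, against 11.13, 11.10 and 11.76 with isotype. Of the 14 genes 13 had positive fold changes (median 0.88) and 7 lay higher in every DTA-1 library. Their sum ranged from 107631 to 158216 CPM with DTA-1 and from 51175 to 103070 CPM with isotype. Of all genes tested, 9.38% lay lower and 8.60% higher in every DTA-1 library, and 52.9% had negative fold changes. The part of this shift in tissue markers in the members' differences was not tested.

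**Figure D3:**
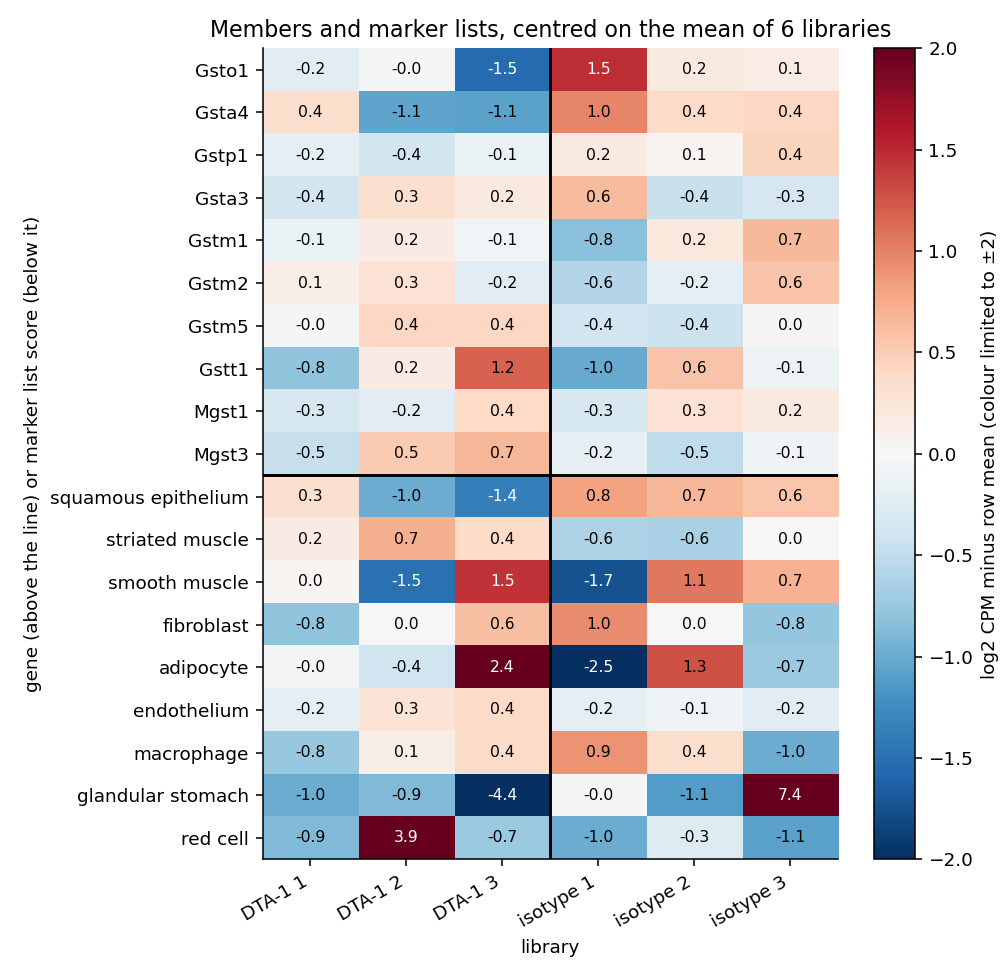
Log2 CPM of the 10 members (above the line) and mean log2 CPM of 9 marker lists (below it) in each library, minus the mean over the 6 libraries; DTA-1 libraries are on the left and the colour stops at ±2. Gsta4 and the squamous score are both lowest in DTA-1 replicates 2 and 3, and the glandular stomach score is high in isotype replicate 3 alone.

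Gstt1 and Mgst1 were highest in DTA-1 replicate 3 and next highest in isotype replicate 2, and so were the adipocyte and smooth muscle scores. The adipocyte score, over the 7 tested of 8 markers, was 4.61, 4.24 and 7.07 with DTA-1, against 2.11, 5.92 and 3.89 with isotype. All 7 had positive fold changes (median log2 fold change 1.16), and the 8 markers summed to 265 to 1613 CPM with DTA-1 and 144 to 612 CPM with isotype. That direction rested on DTA-1 replicate 3, without which 5 of 7 were negative (median -0.19). The smooth muscle score over 8 genes was 8.74, 7.21 and 10.15 with DTA-1, against 6.95, 9.75 and 9.39 with isotype. Gstt1 and Mgst1 were lowest in isotype replicate 1, as were both of these scores. For Mgst1 DTA-1 replicate 1 was nearly equal, at 86.1 CPM against 85.9 CPM in isotype replicate 1. The fibroblast score overlapped between the groups, at 6.14 to 7.55 with DTA-1 and 6.17 to 7.90 with isotype. The endothelial score was 4.96 to 5.53 with DTA-1 and 4.92 to 5.06 with isotype, and the macrophage score 4.28 to 5.42 with DTA-1 and 4.06 to 5.94 with isotype. Lymphocyte markers were scarce, at 8.48 to 56.9 CPM summed over 8 genes with DTA-1 and 4.69 to 29.2 CPM with isotype. Hepatocyte markers, tested because the liver is rich in these enzymes, summed to at most 0.141 CPM with DTA-1. With isotype they summed to 0, 0.113 and 13.7 CPM, the last being isotype replicate 3, the library with stomach transcripts. None of the 6 passed the filter. The part of these tissues in the members' values was not tested.

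Genes with the profile most like each member's were sought among 9892 other tested genes by the root-mean-square difference of log2 CPM over the 6 libraries, each gene centered on its own mean. The nearest to Gsta4 were Nectin1, which encodes a cell adhesion protein, and Ajuba, which encodes a protein of cell junctions, both at a difference of 0.10 where Gsta4 itself varied by 0.78 about its mean. Nectin1 had 89.1, 32.9 and 34.3 CPM with DTA-1, against 136, 105 and 106 CPM with isotype. The same 2 DTA-1 libraries were low as for Gsta4. The nearest to Gsto1 were Epcam (0.20), an epithelial adhesion gene that is also in the squamous list, and Fam84a (0.23). Epcam had 16.6, 27.0 and 6.93 CPM with DTA-1, against 78.2, 25.0 and 25.5 CPM with isotype, with the same highest and lowest libraries as Gsto1. The nearest to Gstp1 were Papss2 (0.07) and Eif2ak4 (0.09). The closest match of all was between Gstm5 and Ap4s1 (0.02), followed among Gstm5's neighbors by Idh3b (0.04), which encodes a citric acid cycle subunit. Mgst3 was nearest to Pcolce2 (0.06) and Sh3bgr (0.10). Gstm1 was nearest to Gng2 (0.11) and Taf9b (0.15), Gstm2 to Prdm2 (0.08) and Pptc7 (0.08), and Gsta3 to Slc35a1 (0.09) and Tmc7 (0.11). Gstt1 was nearest to Mrgprf (0.14) and Rarres2 (0.16), and Mgst1 to Rap1gap2 (0.04) and Rgl1 (0.07). These are likenesses over 6 libraries that share 2 groups and their tissue content.

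The wider superfamily varied in both directions, as the members did. Of 21 other genes 18 were tested, with 8 positive and 10 negative fold changes between -1.43 and 0.83 and a median of -0.15. Leaving out DTA-1 replicate 1 gave a median of -0.39, DTA-1 replicate 3 one of -0.26, isotype replicate 2 one of -0.062 and isotype replicate 3 one of -0.34. None passed edgeR's adjusted threshold, and 1 higher and 4 lower genes had an unadjusted p under 0.05, where the shares over all genes were 5.21% and 7.52%. In 2 of the 18 all DTA-1 libraries lay above those of the isotype group, and in 3 all lay below, where 8.60% and 9.38% of all genes did. Gstm3, Gsto2 and Gstt4 fell under the filter on low counts.

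Mgst2, a microsomal enzyme that can make leukotriene C4, differed most within the superfamily. It had 17.1, 8.15 and 6.80 CPM with DTA-1, against 27.7, 29.5 and 29.3 CPM with isotype. The isotype libraries were nearly equal, and each DTA-1 library lay below them. The log2 fold change was -1.43 ± 0.35 (SE), with an adjusted p of 0.390 in edgeR and 0.0313 in DESeq2, by which it fell, as did 0.852% of all genes. DESeq2 lost the call without any 1 of 4 libraries, the adjusted p being 0.353 and 0.188 on leaving out DTA-1 replicate 2 or 3, and 0.0911 and 0.276 on leaving out isotype replicate 1 or 2. Like Gsta4, Mgst2 passed edgeR without DTA-1 replicate 1 (adjusted p = 0.0302). Gstk1, of the mitochondrial and peroxisomal kappa class, had 36.9, 47.1 and 48.1 CPM with DTA-1, against 19.7, 21.7 and 36.1 CPM with isotype. The groups did not overlap, with the nearest isotype library being replicate 3 (log2 fold change 0.77 ± 0.26, SE; edgeR adjusted p = 0.390). Without that library DESeq2 called it higher (adjusted p = 0.00229), as it did 4.05% of all genes. Gstz1, an isomerase of tyrosine breakdown, averaged 49.1 ± 18.6 CPM with DTA-1 and 31.8 ± 0.914 CPM with isotype (SD, n = 3 each), without overlap. Ptges, a prostaglandin E synthase of the same membrane family as Mgst1, averaged 28.3 ± 15.7 CPM with DTA-1 and 48.8 ± 10.5 CPM with isotype. Gstp3, a further pi class gene, had 1.52, 0.805 and 0.683 CPM with DTA-1, against 2.17, 2.41 and 2.09 CPM with isotype. Gstp2, whose transcripts share 54.3% of their 50-base words with other genes, averaged 16.8 ± 4.25 CPM with DTA-1 and 15.2 ± 3.85 CPM with isotype. Gsta1 shares 90.5% of its words, and averaged 9.88 ± 10.8 CPM with DTA-1 and 18.8 ± 4.85 CPM with isotype.

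**Figure D4:**
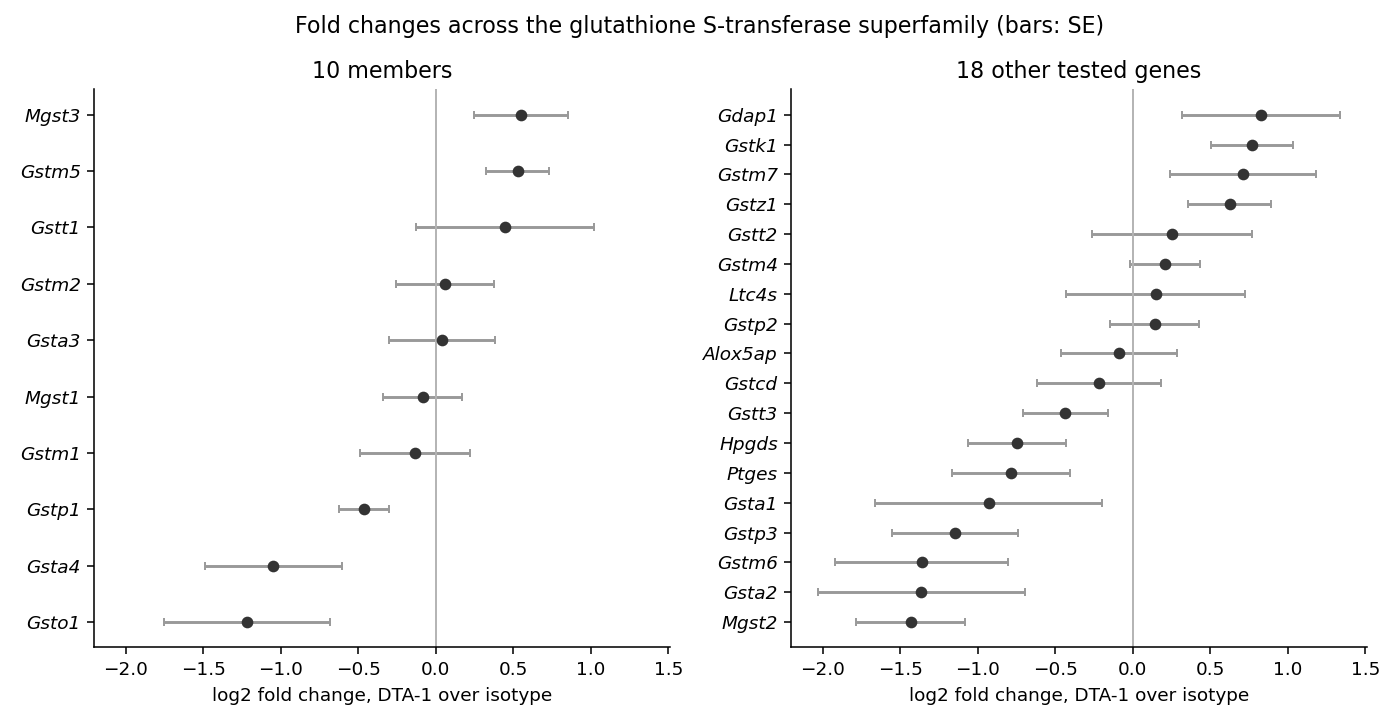
Log2 fold change (DTA-1 over isotype, edgeR, 3 libraries a group) of the 10 members (left) and of 18 other tested genes of the superfamily (right), with bars of 1 SE. The members run from -1.22 for Gsto1 to 0.55 for Mgst3, and the other genes from -1.43 for Mgst2 to 0.83 for Gdap1.

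Of 17 tested of 18 genes that make and supply glutathione, 12 had negative fold changes (median -0.47), where 52.9% of all genes did, and none passed edgeR. At an unadjusted p under 0.05 there were 4 lower and 0 higher, against 7.52% and 5.21% of all genes, and in 5 all DTA-1 libraries lay below all isotype libraries, against 9.38% of all. Gclc, the catalytic subunit of the rate-limiting enzyme of glutathione synthesis, had 76.0, 40.8 and 28.7 CPM with DTA-1, against 113, 92.6 and 95.5 CPM with isotype. Its groups did not overlap, with DTA-1 replicate 1 nearest to isotype as for Gsta4 (log2 fold change -1.05 ± 0.35, SE; edgeR adjusted p = 0.390). Its regulatory partner Gclm averaged 88.9 ± 40.6 CPM with DTA-1 and 148 ± 38.1 CPM with isotype (SD, n = 3 each), with overlap. Gss, which completes the tripeptide, averaged 30.7 ± 10.1 CPM with DTA-1 and 62.7 ± 11.0 CPM with isotype, and Cbs, of cysteine supply, had 1.57, 1.51 and 1.24 CPM with DTA-1, against 2.69, 4.94 and 3.54 CPM with isotype. Neither overlapped, and both had an edgeR adjusted p of 0.390. The list's median was -0.23 without isotype replicate 1.

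Peroxidases and glutaredoxins, which use glutathione as reductant, went both ways. Of 12 genes 8 had positive fold changes (median 0.23), with 2 higher and 2 lower at an unadjusted p under 0.05 (5.21% and 7.52% of all genes). Gpx2, the peroxidase of epithelial linings, averaged 114 ± 83.8 CPM with DTA-1 and 281 ± 19.5 CPM with isotype (SD, n = 3 each), without overlap. Glrx3, an iron-sulfur cluster glutaredoxin, averaged 68.8 ± 1.60 CPM with DTA-1 and 51.2 ± 8.39 CPM with isotype, also without overlap. Gpx4, which reduces lipid peroxides in membranes, averaged 77.2 ± 17.9 CPM with DTA-1 and 52.3 ± 9.0 CPM with isotype, and overlapped. None of the 12 passed edgeR or DESeq2. The list's median was 0.07 with library totals alone and 0.14 without DTA-1 replicate 3.

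Of 20 tested of 21 genes for conjugate export and other phase II reactions, 13 had negative fold changes (median -0.47), with 7 lower and 2 higher at an unadjusted p under 0.05 (7.52% and 5.21% of all genes). Abcc3, an exporter of conjugates, had 37.5, 15.4 and 12.1 CPM with DTA-1, against 61.0, 57.4 and 61.9 CPM with isotype. The exporter Abcg2 went the other way, averaging 57.6 ± 11.7 CPM with DTA-1 and 37.2 ± 3.12 CPM with isotype (SD, n = 3 each), as did the quinone reductase Nqo2, at 67.8 ± 16.9 CPM with DTA-1 and 35.3 ± 7.05 CPM with isotype. The groups did not overlap for these 3 genes, each with an edgeR adjusted p of 0.390. The NRF2 target Nqo1 averaged 74.4 ± 29.2 CPM with DTA-1 and 117 ± 38.0 CPM with isotype, with overlap. DESeq2 called none of the 20 with all libraries.

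In the NRF2 list, 17 of 23 genes had negative fold changes (median -0.44), with 3 lower and 0 higher at an unadjusted p under 0.05, again beside 7.52% and 5.21% of all genes. Nfe2l2, which encodes NRF2, averaged 197 ± 54.8 CPM with DTA-1 and 267 ± 70.6 CPM with isotype (SD, n = 3 each), with overlap. Keap1, its inhibitor, averaged 91.6 ± 7.27 CPM with DTA-1 and 73.7 ± 6.82 CPM with isotype, and all DTA-1 libraries lay above all isotype libraries (log2 fold change 0.31 ± 0.15, SE; edgeR adjusted p = 0.405). Pgd and G6pdx, which supply NADPH, averaged 143 ± 51.9 and 71.7 ± 34.6 CPM with DTA-1 and 268 ± 21.8 and 140 ± 5.62 CPM with isotype, both without overlap. Neither edgeR nor DESeq2 called any of the 23. The 4 lists together hold 70 distinct genes, 68 of them tested, and for all of them the squamous markers given above moved with the groups, a part that was not tested. Without DTA-1 replicate 1 edgeR called lower 5 of 17 genes of glutathione synthesis, 1 of 12 peroxidases and glutaredoxins, 3 of 23 NRF2 genes and 3 of 20 export and phase II genes, where it called 3.31% of all genes lower. It called 1 export and phase II gene higher, as it did 0.380% of all genes.

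**Figure D5:**
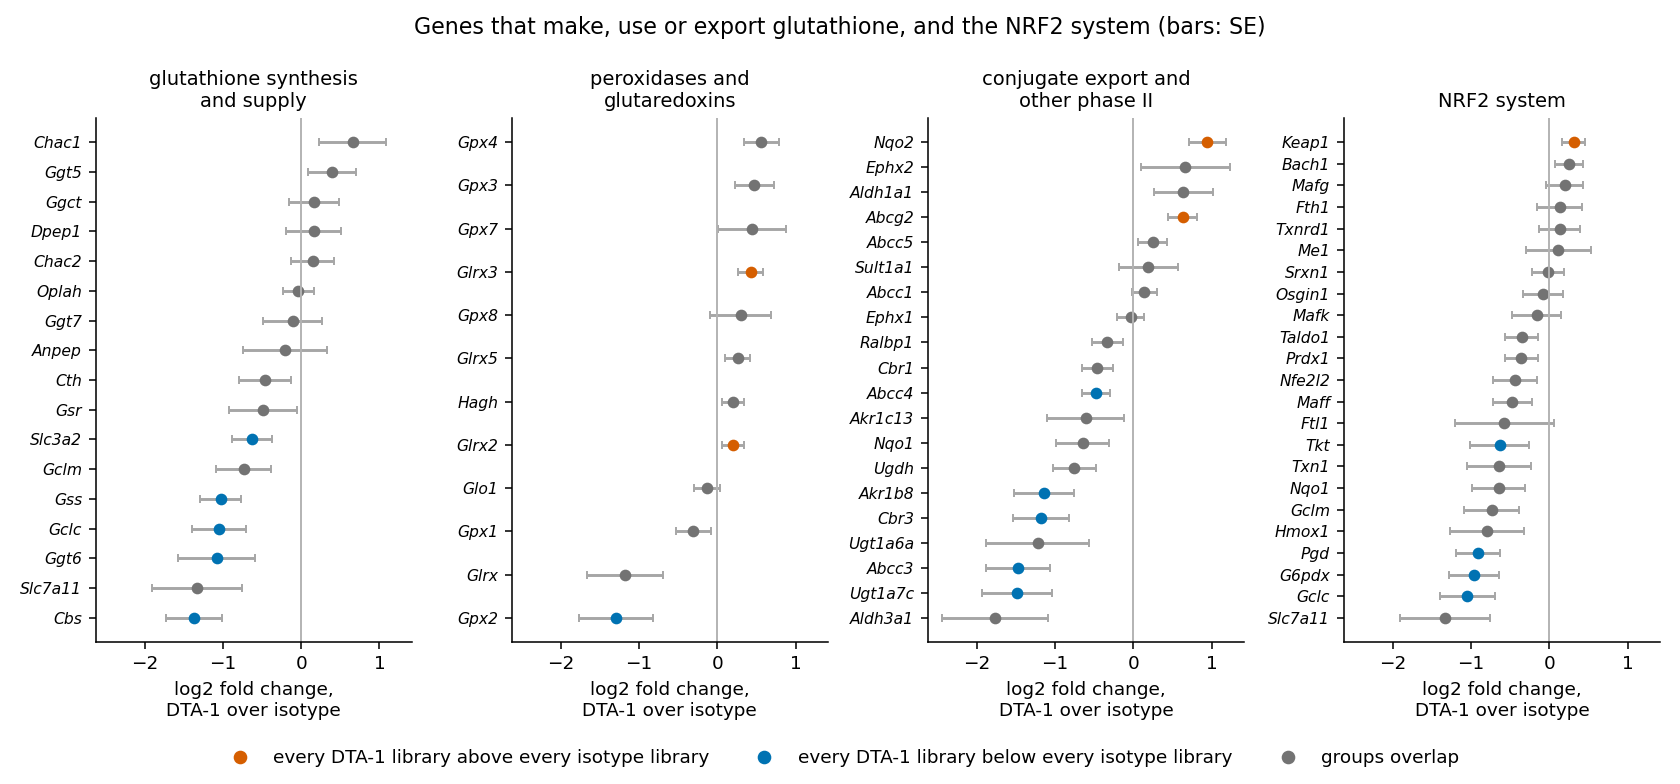
Log2 fold change (DTA-1 over isotype, edgeR, 3 libraries a group, bars of 1 SE) of the tested genes of 4 lists; orange marks genes whose DTA-1 libraries all lie above, and blue those whose DTA-1 libraries all lie below, the isotype libraries. The 5 non-overlapping genes of glutathione synthesis, of 17 tested, lie on the lower side. So do 5 of 20 export and phase II genes, 4 of 23 NRF2 genes and 1 of 12 peroxidases and glutaredoxins. Among these are Abcc3, Pgd, G6pdx and Gpx2. Nqo2, Abcg2, Keap1, Glrx2 and Glrx3 lie on the higher side. Of all genes tested, 9.38% lie on the lower and 8.60% on the higher side without overlap.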

How the data were processed

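PolyA RNA was sequenced from 3 DTA-1 and 3 isotype libraries. The values are raw read counts per Ensembl gene as deposited by the authors. The tools named per the submitters' processing notes are STAR, HTSeq 0.6.1p1, cutadapt 1.13 and, with build mm10, DESeq2 1.14.1. Their settings, including strand, are not given in the sources at hand. Counts were tested with edgeR 4.0.16 (R 4.3.3; robust quasi-likelihood test, TMM scaling, filterByExpr with a minimum count of 10 and a minimum total of 15, 15763 genes tested, Benjamini-Hochberg threshold 0.05). Alternatives were DESeq2 1.42.0, limma-voom (limma 3.58.1), 3 other scalings, 2 other filters (none, and at least 50 reads in 3 libraries), the replicate number as a block, and each library left out. The SE of a fold change is its size over the square root of F. Gene coordinates, lengths and shared 50-base words come from GENCODE M21 (GRCm38), and promoters from RefSeq (GRCm38.p6).

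All 10 members are named, the 3 genes with the smallest p of each pathway list, the 6 most abundant other superfamily genes, Nfe2l2, Keap1, Nqo1, Gclc and Gclm, and 2 genes nearest to each member. The members and lists were chosen with earlier results of these data known. With 3 libraries against 3, an exact permutation test of 1 value cannot give a two-sided p below 0.10, so none is reported. No 2 libraries agreed within sampling noise (smallest median chi-square of a pair, 4.04 over genes).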

Additional observations from a re-analysis of the deposited data

How the results depend on the processing

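Of 200 refitted fold changes of the members (20 alternatives for each gene), 170 kept their direction and their side of the threshold, 4 passed it and 26 changed sign. The count of genes called by edgeR, 0 with all libraries, ranged from 0 to 601 with 1 library left out, and DESeq2 called 180. Members called ranged from 0 to 1 in edgeR and from 0 to 3 in DESeq2 with 1 library left out, and members without overlap from 3 to 5. DESeq2 with single libraries left out was chosen after seeing the data. Log2 fold changes with 1 library left out ranged in edgeR from -0.13 to 0.48 for Gsta3, from -0.44 to 0.24 for Gstm1, from -0.16 to 0.47 for Gstm2, from -0.20 to 0.91 for Gstt1 and from -0.34 to 0.057 for Mgst1. In DESeq2 they ranged from -0.12 to 0.49, -0.43 to 0.25, -0.15 to 0.48, -0.18 to 0.91 and -0.32 to 0.081 in that order of genes. With library totals alone, which moved the median of all genes to -0.19, Gsta3 stood at -0.13 and Gstm2 at -0.078. The log2 ratio of the summed members ranged from -1.02 to -0.51 with 1 library left out. By coding length 4 of the 10 genes kept their place in the order of levels, and Gstt1 rather than Gsta3 was the least abundant. The cause of these changes was not tested.

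With the replicate number as a block, edgeR called 0 genes and no member (smallest adjusted p 0.475). Deviations of same-numbered libraries from their group means had correlations of 0.017, -0.33 and -0.086 across genes. Those of different-numbered libraries ran from -0.18 to 0.36. The labels do not say that the numbers mark pairs, and with 3 libraries a group these values cannot decide it. With 3 libraries a group, the SE of a member's fold change was 0.16 to 0.57 on the log2 scale. Differences well beyond their SE also went uncalled. Gstp1 at -0.46 ± 0.16 (SE) and Gsta4 at -1.05 ± 0.44 (SE) had edgeR adjusted p-values of 0.390 and 0.392.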
